A study of Mus musculus with 6 samples.

Results

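The 42 genes described here encode nucleolar factors that build ribosomes. They were chosen by name, as the rows of the count tables whose Ensembl identifiers carry these symbols in GENCODE M21, and all 42 were found among 55450 annotated genes. RNA longer than 200 bp was sequenced from whole mouse brain of TRMT1L knockout animals (KO, 3 libraries) and wild-type animals (WT, 3 libraries), which the submitters call biological triplicates. The labels give no strain, age, sex or litter, and do not say how the knockout was made, so the groups can be described by genotype alone. All 42 genes passed the filter on low counts, so no factor was left out of the comparison.

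Ribosomes are built in the nucleolus, where RNA polymerase I makes a long precursor of the ribosomal RNAs. Small nucleolar ribonucleoproteins (snoRNPs) modify that precursor at sites chosen by base pairing with their guide RNAs, box C/D particles by methylating riboses and box H/ACA particles by isomerizing uridines. A large assembly called the small subunit processome cleaves and folds the part that becomes the 40S subunit, and a separate set of factors matures the 60S subunit. Neurons are large cells that do not divide and carry prominent nucleoli. TRMT1L, a relative of the tRNA methyltransferase TRMT1, has been localized to the nucleolus, which makes the expression of the machinery around it a natural comparison.

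The libraries held between 31201119 and 36145961 counts in genes on the sequenced strand. The targeted gene Trmt1l had 1279, 1034 and 1158 counts across the WT libraries in order and 93, 101 and 106 across the KO libraries, so each library carried the level its label implies. Reads in no gene made up between 50.3% and 52.2% of mapped reads in WT and between 48.6% and 49.8% in KO. Reads mapping to several places made up between 4.61% and 5.16% in WT and between 5.25% and 5.60% in KO. Reads ambiguous between genes made up between 0.784% and 0.808% in WT and between 0.863% and 0.909% in KO. These 3 shares separated the groups, and their part in the differences below was not tested. All 46 markers fixed for 9 cell types were detected, none of them at 0 in every library, and the summed level of neuron markers lay between 4792 and 5034 CPM (counts scaled to library size) in WT and between 4567 and 4873 CPM in KO. Of the 9 marker lists, only the choroid plexus list had sums that separated the groups, between 309 and 365 CPM in WT and between 369 and 441 CPM in KO. Most of that sum came from Ttr, with a mean of 293 CPM in WT. Ttr was also the only one of the 5 markers to separate the groups, while Folr1, Kl, Clic6 and Otx2 overlapped. Before adjustment, 2 of the 5, Ttr and Kl, had p-values below 0.05 and were higher in KO (against 4.54% of all genes). The part of the choroid plexus in the results below was not tested. In whole brain, fewer cells of a type and less RNA per cell cannot be told apart.

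The factors were compared between genotypes with edgeR's quasi-likelihood test, fitted over all 21237 genes that passed the filter. None of the 42 passed at an adjusted p-value of 0.05, against 0.00942% of all genes tested. Without adjustment, 3 factors had a p-value under 0.05 and were higher in KO (7.14% of the 42, against 4.54% of all genes), and 0 were lower (against 3.38%). Leaving out WT library 3 or KO library 2 left 1 of these, Nolc1 (2.38%, against 3.66% and 4.202% of all genes in those fits). DESeq2's Wald test also gave 0 factors with an adjusted p-value under 0.05, among the 8 for which it gave such a value. Without adjustment it gave the same 3 factors as the full edgeR fit (7.14%, against 3.42% of all genes higher) and 0 lower (against 2.04%). Every KO library lay above every WT library for 5 factors (11.9%, against 7.46% of all genes), and every KO library lay below every WT library for 0 (against 6.97%). With a library left out, these were 7 to 10 higher (against 12.1% to 13.1% of all genes) and 0 to 4 lower, the 4 without WT library 3 (9.52%, against 11.6%) or KO library 1 (9.52%, against 13.1%). With GC correction the number was again 5 (against 5.72% of all genes), but Rrp12 and Bop1 overlapped and Nop14 and Wdr12 did not. The log2 fold change of KO over WT was above 0 for 29 factors (69.0%, against 50.1% of all genes). Its median was 0.023, beside 0.00013 over all genes tested. That median was 0.044 with GC correction (beside 0.010 over all genes), 0.013 with total counts (beside -0.0099) and 0.037 without WT library 1 (beside 0.0045).

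**Figure D1:**
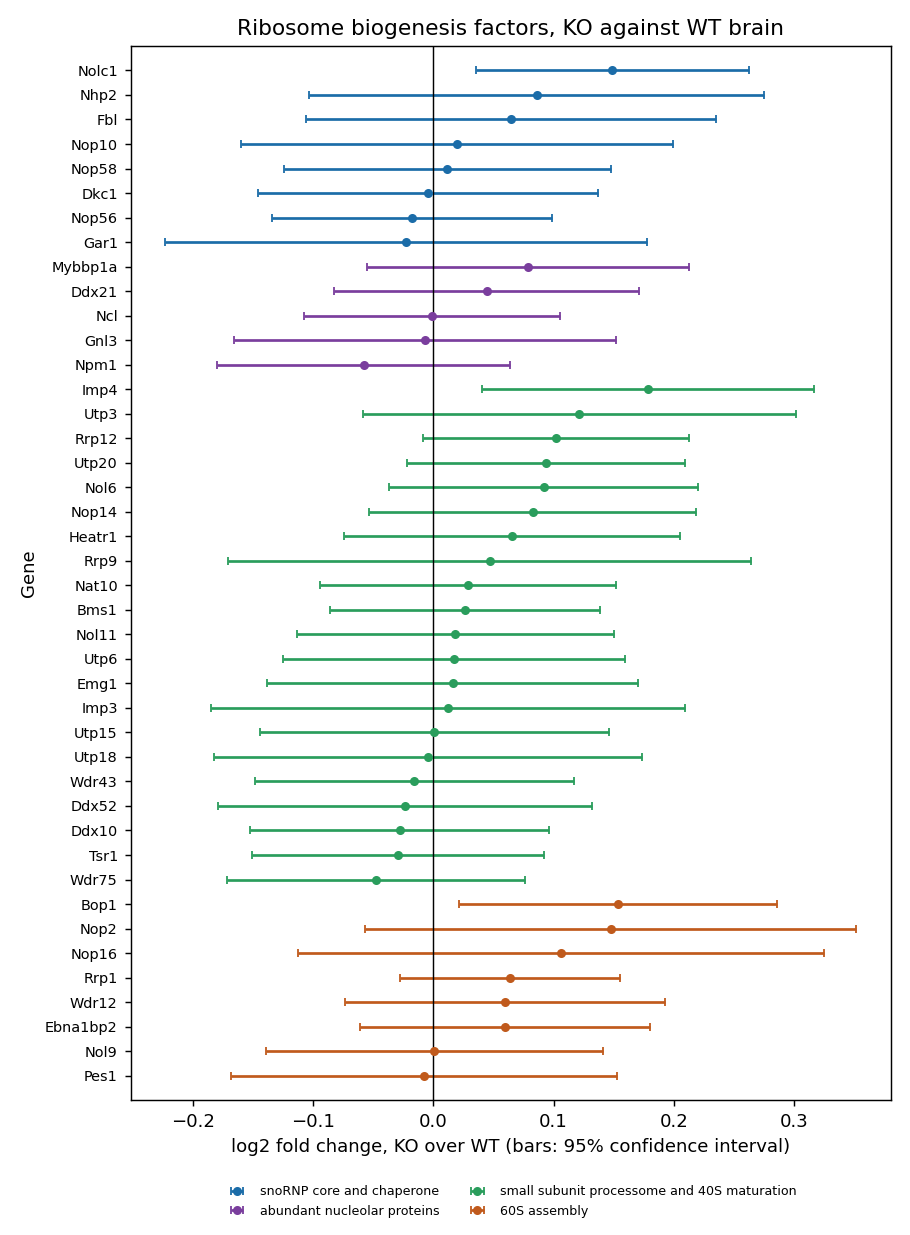
Log2 fold change of KO over WT for each of the 42 factors, by role, with 95% confidence intervals of the edgeR fit that are not adjusted for the number of genes. The points lie between -0.058 (Npm1) and 0.18 (Imp4), and 3 intervals, those of Nolc1, Imp4 and Bop1, lie above 0.

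The factors had between 260 and 11270 counts in a library, and the standard error (SE) of their log2 fold changes lay between 0.042 and 0.10. The 95% confidence intervals, not adjusted for the number of genes, reached at most 0.35 on the log2 scale (a ratio of 1.28, for Nop2) and at least -0.22 (a ratio of 0.856, for Gar1). For 34 of the 42 factors the whole interval lay within 0.25 of 0, and for 42 within 0.5. The spread between libraries was small, with a median coefficient of variation of 4.32% in WT and 4.84% in KO.

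The 3 factors with the smallest p-values have different roles: Nolc1 binds snoRNPs, Imp4 belongs to the small subunit processome, and Bop1 acts in 60S assembly. The RefSeq promoter table (GRCm38.p6) held 39 windows for 36 of the 42 factors, each from 250 bases before to 50 bases after a transcript start. The 250 bases before the start are shown for Imp4 (chr1:34439579-34439828, plus strand) and Nolc1 (chr19:46075597-46075846, plus strand), the 2 of these 3 factors that the table holds, and for Ncl (chr1:86359456-86359705, minus strand), the factor with the most reads. Capitals mark CACGTG, the canonical E-box bound by MYC and related factors, in Imp4, CCGGAAG, a core bound by ETS factors, in Nolc1, and GGGCGG, a GC box, on either strand in Nolc1 and Ncl.
Imp4: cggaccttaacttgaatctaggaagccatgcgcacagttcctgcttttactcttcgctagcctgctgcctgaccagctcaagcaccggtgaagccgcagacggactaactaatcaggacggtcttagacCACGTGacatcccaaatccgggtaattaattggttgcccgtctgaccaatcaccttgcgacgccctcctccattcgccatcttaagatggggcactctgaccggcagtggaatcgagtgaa
Nolc1: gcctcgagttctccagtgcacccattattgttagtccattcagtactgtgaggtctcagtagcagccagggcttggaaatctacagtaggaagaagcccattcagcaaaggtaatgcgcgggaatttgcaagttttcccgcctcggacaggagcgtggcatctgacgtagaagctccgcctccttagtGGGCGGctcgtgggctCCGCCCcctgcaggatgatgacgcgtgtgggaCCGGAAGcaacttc
Ncl: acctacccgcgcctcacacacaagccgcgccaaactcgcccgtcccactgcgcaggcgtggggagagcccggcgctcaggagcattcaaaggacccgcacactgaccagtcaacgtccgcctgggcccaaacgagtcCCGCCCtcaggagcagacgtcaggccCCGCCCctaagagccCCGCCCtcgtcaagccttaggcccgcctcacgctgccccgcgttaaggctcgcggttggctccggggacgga

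The E-box of Imp4 begins 121 bases before the start, the ETS core of Nolc1 14 bases before it, and the 3 GC boxes of Ncl 113, 87 and 72 bases before it. Across the factors, 9 motifs were searched on both strands, the 8 spelled out here and a longer palindromic form of the NRF1 motif. The short NRF1 core CGCATGCG lies inside that longer form, the motif GGAAGCGG can overlap the ETS core, and the motif GATTGGCT holds CCAAT on its other strand. CACGTG was in 9 of the 39 windows (23.1%), against 7.15% of all 32851 windows and 9.19% of the windows of protein-coding genes tested here. The 9 genes with it were Imp4, Mybbp1a, Nol11, Nop2, Pes1, Tsr1, Utp18, Utp20 and Wdr43. CCGGAAG was in 12 windows (30.8%, against 8.86% of all and 14.9% of those of tested coding genes). TCGCGAGA was in 5 windows of 4 genes, Nol9, Nop14, Nop58 and Tsr1 (12.8%, against 0.995% and 1.83%). GGGCGG was in 25 windows (64.1%, against 35.7% and 59.3%), CCAAT in 13 (33.3%, against 37.4% and 37.1%) and GGAAGCGG in 3 (7.69%, against 2.69% and 4.57%). CGCATGCG was in 0 windows (against 1.87% and 3.31%), its longer form in 0 (against 0.971% and 1.79%) and GATTGGCT in 0 (against 3.84% and 5.16%). These matches describe the letters of the windows and no test was made of them.

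The snoRNP proteins come first. Fbl encodes fibrillarin, the ribose methyltransferase of box C/D particles (ENSMUSG00000046865.7, chromosome 7 from 28169710 to 28179269). Its level, with libraries here and below in the order 1 to 3, was 16.3, 16.6 and 18.1 CPM in WT and 19.2, 16.7 and 17.3 CPM in KO. The groups overlapped, with KO library 1 the highest of all. The log2 fold change was 0.064 (SE 0.078, adjusted p = 0.864 in edgeR).

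Nop56 and Nop58 form the scaffold that holds fibrillarin on the guide RNA. Nop56 had 61.0, 58.7 and 57.9 CPM in WT and 61.6, 57.4 and 56.4 CPM in KO, a log2 fold change of -0.018 (SE 0.053). Nop58 had 59.1, 57.2 and 54.8 CPM in WT and 61.8, 53.1 and 57.4 CPM in KO, a log2 fold change of 0.011 (SE 0.062). For both, KO library 1 was the highest of all 6 libraries and a KO library the lowest, so the genotypes overlapped completely. Their adjusted p-values in edgeR were 0.956 and 0.980.

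The box H/ACA core consists of dyskerin (Dkc1), the pseudouridine synthase whose human counterpart is mutated in dyskeratosis congenita, and of Gar1, Nhp2 and Nop10. Dkc1, on chromosome X, had 27.8, 25.5 and 27.7 CPM in WT and 28.5, 26.4 and 25.9 CPM in KO, a log2 fold change of -0.0046 (SE 0.065). Gar1 had 10.5, 10.7 and 10.5 CPM in WT and 9.38, 11.2 and 10.6 CPM in KO (log2 fold change -0.023, SE 0.092). The KO libraries of Gar1 held both the lowest and the highest value. Nhp2 had 10.7, 9.86 and 10.1 CPM in WT and 11.1, 10.2 and 11.3 CPM in KO (log2 fold change 0.086, SE 0.087). Nop10 had 11.8, 12.1 and 10.8 CPM in WT and 11.7, 11.6 and 11.8 CPM in KO (log2 fold change 0.020, SE 0.082). The adjusted p-values of these 4 subunits in edgeR lay between 0.827 and 0.990, and no subunit separated the groups.

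Nolc1 encodes Nopp140, a phosphoprotein that accompanies both kinds of snoRNP between the nucleolus and Cajal bodies (ENSMUSG00000015176.11, chromosome 19 from 46075863 to 46085530). It had 41.9, 42.4 and 41.4 CPM in WT and 45.9, 48.2 and 45.2 CPM in KO. Every KO library lay above every WT library, and WT averaged 41.9 ± 0.487 CPM and KO 46.5 ± 1.59 CPM (SD, n = 3). The log2 fold change was 0.15 (SE 0.052, 95% confidence interval 0.04 to 0.26), with an unadjusted p of 0.0144 and an adjusted p of 0.579 in edgeR. Its unadjusted p-value stayed under 0.05 in 16 of 16 alternative analyses, and its adjusted p-value was at least 0.483 in those that gave one. Among the 8 snoRNP proteins, Nolc1 was the only one with an unadjusted p-value under 0.05 (12.5%, against 4.54% of all genes). The median of the group was 0.016 on the log2 scale, and over 16 alternative analyses it lay between 0.000078 (without WT library 3) and 0.046 (with GC correction).

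**Figure D2:**
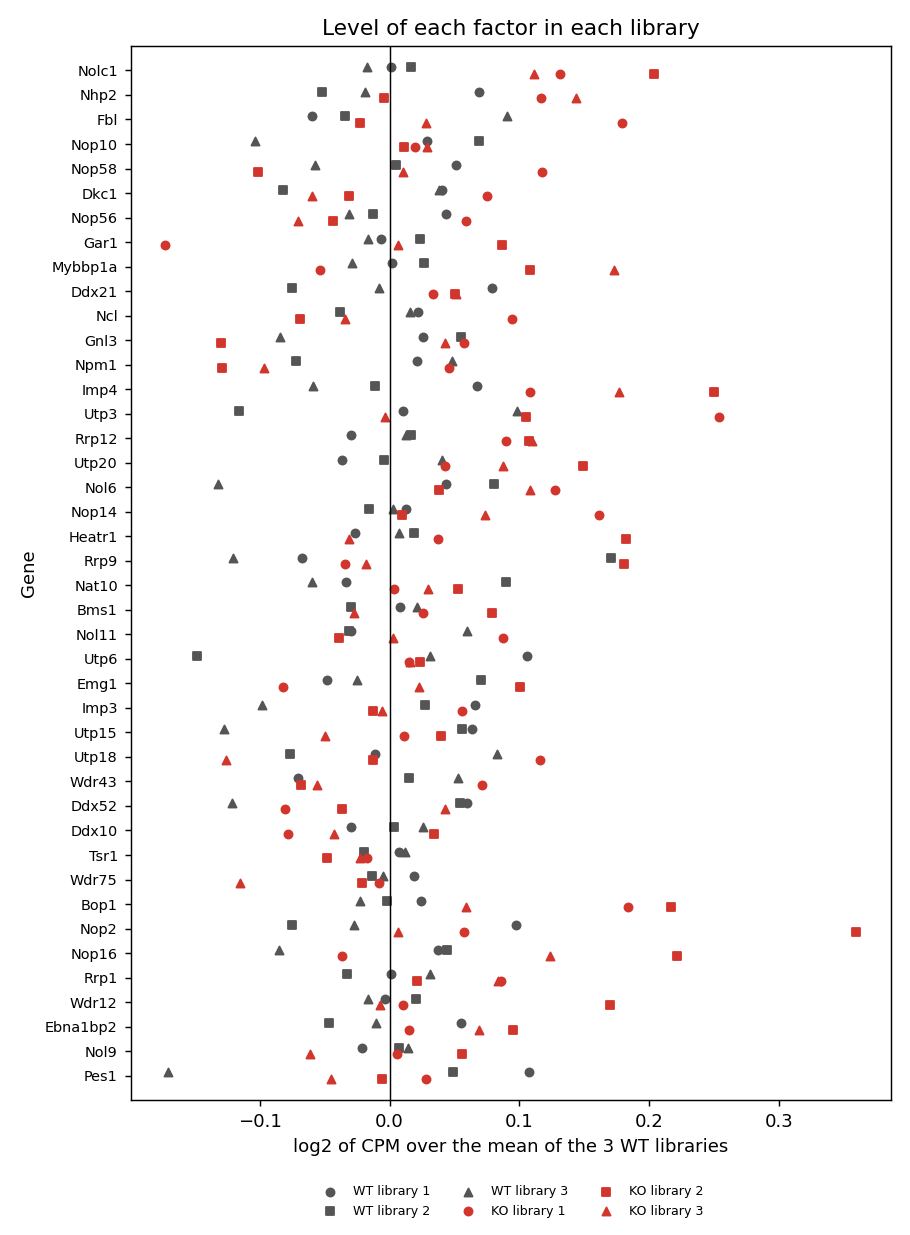
Level of each factor in each of the 6 libraries, as the log2 ratio of its CPM to the mean of the 3 WT libraries; grey marks WT and red marks KO. The KO points lie wholly to the right of the WT points for 5 factors (Nolc1, Imp4, Rrp12, Utp20 and Bop1) and wholly to the left for 0.

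The next group is labelled abundant nucleolar proteins, a label that does not hold for each of its genes. Gnl3 averaged 21.7 CPM in WT, under the median of 30.1 CPM of the 42 factors, and Ddx21 averaged 33.3 CPM. In this group, Ncl encodes nucleolin, an RNA-binding protein that contacts the earliest ribosomal RNA precursor (ENSMUSG00000026234.12, chromosome 1 from 86344719 to 86359400). It had 308, 296 and 307 CPM in WT and 324, 290 and 297 CPM in KO, and the KO libraries held both extremes. Its log2 fold change was -0.0013 (SE 0.049), and the interval from -0.11 to 0.11 bounds any difference of the mean more tightly than for most factors. Npm1 encodes nucleophosmin, a chaperone of histones and ribosomal proteins, and had 140, 131 and 143 CPM in WT and 143, 126 and 129 CPM in KO. Its log2 fold change, -0.058 (SE 0.056, adjusted p = 0.821 in edgeR), was the lowest of all 42 factors. Corrected for GC content it was -0.00021, and Gar1 was then the lowest with -0.096. Npm1 has many processed pseudogenes, and since reads that map to several places were not counted, its level is uncertain.

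The other 3 proteins of this group are Gnl3 (nucleostemin, a nucleolar GTPase), Mybbp1a, which binds MYB and sits in the nucleolus, and the RNA helicase Ddx21. Gnl3 had between 20.5 and 22.5 CPM in WT and between 19.8 and 22.6 CPM in KO. Mybbp1a had 59.2, 60.2 and 57.9 CPM in WT and 56.9, 63.7 and 66.6 CPM in KO, so KO library 1 lay below the WT libraries and the other two above them. Ddx21 had between 31.6 and 35.1 CPM in WT and between 34.0 and 34.5 CPM in KO. Their log2 fold changes were -0.0070, 0.079 and 0.044, with adjusted p-values of 0.988, 0.779 and 0.875 in edgeR. In this group of 5, 0 proteins passed at an unadjusted p-value under 0.05 (against 4.54% of all genes higher and 3.38% lower). The median log2 fold change was -0.0013, and over 16 alternative analyses it lay between -0.041 (without KO library 1) and 0.041 (with GC correction, and without KO library 2).

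The small subunit processome and the later 40S factors form the largest group, with 21 genes. Of these, 15 had a log2 fold change above 0 (71.4%, against 50.1% of all genes). At an unadjusted p-value under 0.05, 1 was higher in KO (4.76%, against 4.54%), and 3 separated the groups, all with higher values in KO (14.3%, against 7.46%). Their median log2 fold change was 0.018, and over 16 alternative analyses it lay between 0.0086 (with total counts) and 0.041 (with GC correction). Heatr1, a large scaffold of the UTP-A complex that also serves transcription by RNA polymerase I, had 33.7, 34.8 and 34.6 CPM in WT and 35.3, 39.0 and 33.6 CPM in KO (log2 fold change 0.065, SE 0.064, adjusted p = 0.824 in edgeR). The other UTP-A members Utp15, Wdr43, Wdr75 and Nol11 lay between -0.048 (Wdr75) and 0.018 (Nol11) in log2 fold change.

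Imp4 binds the U3 snoRNA that organizes the processome (ENSMUSG00000026127.13, chromosome 1 from 34439851 to 34449356). It had 27.7, 26.3 and 25.4 CPM in WT and 28.5, 31.5 and 29.9 CPM in KO, with every KO library above every WT library. WT averaged 26.5 ± 1.18 CPM and KO 30.0 ± 1.47 CPM (SD, n = 3). Its log2 fold change of 0.18 was the highest of the 42 (SE 0.063, 95% confidence interval 0.04 to 0.32), with an unadjusted p of 0.0159 and an adjusted p of 0.579 in edgeR. The unadjusted p-value stayed under 0.05 in 14 of 16 alternative analyses, with 0.0563 in edgeR without WT library 3 and 0.0550 without KO library 2. The adjusted p-value was at least 0.413 in those that gave one.

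Its partner Imp3 did not share this. Imp3 had 9.56, 9.31 and 8.54 CPM in WT and 9.497, 9.06 and 9.10 CPM in KO, a log2 fold change of 0.012 (SE 0.090). The difference between the fold changes of Imp3 and Imp4 was not tested. Rrp9, which recognizes the U3 particle, had 11.98, 14.1 and 11.5 CPM in WT and 12.3, 14.2 and 12.4 CPM in KO, so library 2 was the highest in each genotype (log2 fold change 0.047, SE 0.099, adjusted p = 0.932 in edgeR).

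Rrp12 and Utp20 were the other 2 genes of this group whose libraries did not overlap. Rrp12, which takes part in the maturation and export of pre-40S particles, had 37.7, 38.9 and 38.8 CPM in WT and 40.9, 41.4 and 41.5 CPM in KO (log2 fold change 0.10, SE 0.051, adjusted p = 0.643 in edgeR). Utp20 had 44.9, 45.9 and 47.3 CPM in WT and 47.4, 51.0 and 48.9 CPM in KO (log2 fold change 0.094, SE 0.053, adjusted p = 0.688). For Utp20 the lowest KO library and the highest WT library were nearly level, and they overlapped in the counts without strand and with the filter at a mean of 50 counts. With GC correction the libraries of Rrp12 overlapped and its log2 fold change was 0.041, while those of Utp20 stayed apart with a log2 fold change of 0.13 and an unadjusted p of 0.0430 (adjusted p = 0.991) in edgeR. Utp20 thus took the place of Bop1 among the 3 factors under 0.05 without adjustment.

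The enzymes of the group gave small values. Nat10, the cytidine acetyltransferase of ribosomal RNA, averaged 43.8 ± 2.45 CPM in WT and 44.7 ± 0.753 CPM in KO over 3 libraries each (log2 fold change 0.029, SE 0.056). Emg1, a methyltransferase that modifies a pseudouridine of the small subunit RNA, the GTPase Bms1 and the helicases Ddx10 and Ddx52 had log2 fold changes of 0.016, 0.026, -0.028 and -0.024. Nol6, of the UTP-C complex, had 107, 110 and 94.7 CPM in WT and 113, 107 and 112 CPM in KO (log2 fold change 0.092, SE 0.059). The UTP-B members Utp6 and Utp18 had 0.017 and -0.0046, while Utp3 and Nop14 had 0.12 and 0.083. Tsr1, which proofreads late pre-40S particles, had -0.030. None of these had an unadjusted p-value under 0.1.

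The 60S factors include the PeBoW complex, made of Pes1 (pescadillo), Bop1 and Wdr12, which is required for processing of the large subunit RNA precursor. Pes1 had 32.6, 31.4 and 26.9 CPM in WT and 30.9, 30.2 and 29.4 CPM in KO, a log2 fold change of -0.0079 (SE 0.074, adjusted p = 0.987 in edgeR). Wdr12 had 36.1, 36.7 and 35.7 CPM in WT and 36.4, 40.7 and 35.97 CPM in KO, where only KO library 2 stood above WT (log2 fold change 0.060, SE 0.061, adjusted p = 0.829). Bop1 (ENSMUSG00000022557.11, chromosome 15 from 76452989 to 76477277) had 29.8, 29.3 and 28.9 CPM in WT and 33.3, 34.1 and 30.5 CPM in KO, so every KO library lay above every WT library.

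For Bop1, WT averaged 29.3 ± 0.476 CPM and KO 32.6 ± 1.85 CPM (SD, n = 3). The log2 fold change was 0.15 (SE 0.061, 95% confidence interval 0.02 to 0.29), with an unadjusted p of 0.0264 and an adjusted p of 0.600 in edgeR. The unadjusted p-value stayed under 0.05 in 10 of 16 alternative analyses; it was above 0.05 with GC correction (with or without the block) and when WT library 2 or 3 or KO library 1 or 2 was left out. Corrected for GC content, the libraries of Bop1 overlapped between the groups, its log2 fold change was 0.071 and its unadjusted p in edgeR 0.310; its longest transcript has 58.2% G and C, against a median of 48.5% over the genes tested. The differences between the fold changes of the 3 PeBoW subunits were not tested.

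Of the other 5 factors of the 60S subunit, Nop2, a cytosine methyltransferase of the large subunit RNA, had 22.4, 19.9 and 20.5 CPM in WT and 21.8, 26.9 and 21.03 CPM in KO. The KO mean of Nop2 rests on library 2, and its log2 fold change of 0.15 had the highest upper bound of all intervals (SE 0.093, adjusted p = 0.724 in edgeR). Rrp1 had 193, 189 and 197 CPM in WT and 205, 196 and 204 CPM in KO (log2 fold change 0.064, SE 0.042, adjusted p = 0.733). Ebna1bp2, Nop16 and the polynucleotide kinase Nol9 had log2 fold changes of 0.059, 0.11 and 0.00086. In this group of 8, 7 were above 0 (87.5%, against 50.1% of all genes), 1 was higher at an unadjusted p-value under 0.05 (12.5%, against 4.54%), and the median was 0.062. Over 16 alternative analyses that median lay between 0.036 (without KO library 2) and 0.081 (without KO library 1).

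**Figure D3:**
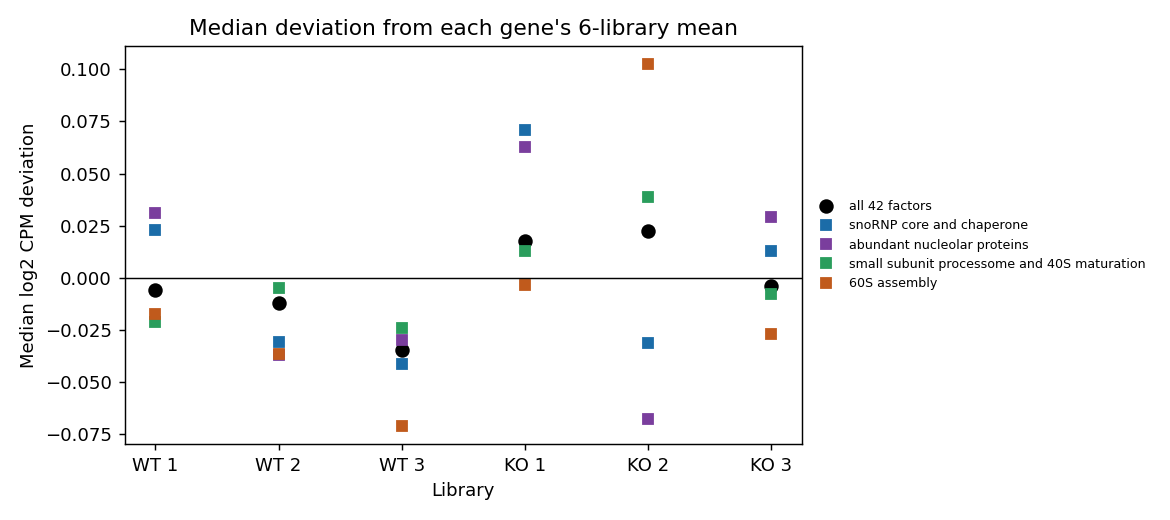
Median, over all 42 factors and over each role group, of the deviation of log2 CPM from the gene's mean over 6 libraries, for each library. The medians of the 42 lie between -0.034 (WT library 3) and 0.022 (KO library 2), and the role groups order differently in KO libraries 1 and 2.

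The libraries of a genotype also differed among themselves. The median deviation of the 42 factors from their own 6-library means was -0.0056, -0.012 and -0.034 across the WT libraries in order and 0.018, 0.022 and -0.0037 across the KO libraries, while that of all genes lay between 0.00016 and 0.0046. The KO libraries thus lay above the WT libraries in this median, KO library 3 by the least. The role groups did not move together between the KO libraries. In KO library 1 the snoRNP proteins and the group labelled abundant nucleolar proteins were high (medians 0.071 and 0.063) and the 60S factors near their mean (-0.0032). In KO library 2 the 60S factors were the highest of these 3 groups, at 0.10, with the snoRNP proteins at -0.031 and the group labelled abundant at -0.068. Added over the 42 factors, WT reached 1869 ± 20.4 CPM and KO 1913 ± 34.1 CPM (SD, n = 3). The sums were 1893, 1854 and 1862 CPM in WT and 1952, 1898 and 1889 CPM in KO, so KO library 3 lay between the WT values.

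Which factors are abundant in brain can be judged only per length. Scaled to the longest protein-coding transcript of each gene, as TPM, Rrp1 and Npm1 led in WT with 293 ± 0.603 and 255 ± 6.26 TPM (SD, n = 3). Ncl followed with 112 ± 1.43 TPM, then Nop56 with 95.01 ± 3.46, Nol6 with 68.1 ± 6.499 and Emg1 with 60.6 ± 3.75 TPM. The other 36 factors were under 50 TPM, and the median of the 42 was 30.4 TPM. Each of the first 4 lay above the next by more than their SDs together, while the difference between Nol6 and Emg1 was within them. The lowest were Nop16 (14.4 ± 0.974 TPM), Imp4 (13.7 ± 0.737 TPM) and Wdr12 (10.9 ± 0.359 TPM). Subunits of a single complex were not equally abundant on this scale: Nop56 had 95.01 TPM, Fbl 42.7 and Nop58 18.1, while Dkc1, Gar1, Nhp2 and Nop10 lay between 25.1 and 31.4 TPM. The transcript used sets this scale. It is 9507 bases long for Nop58, 10012 for Wdr12, 8202 for Ncl and 5836 for Imp4, and a shorter main transcript would raise their TPM. For 9 factors the longest transcript of any kind is longer than the coding one used, among them Emg1 (4329 against 1034 bases), Nop56 (3627 against 1877) and Fbl (2411 against 1197), and scaling to it would lower their TPM, so these ranks depend on the transcript.

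**Figure D4:**
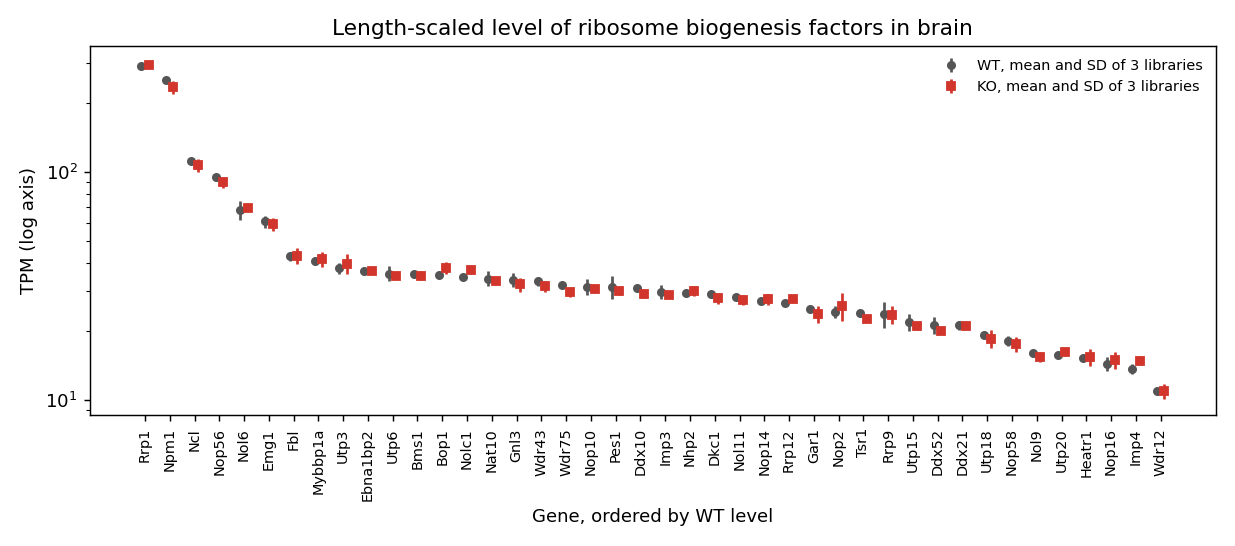
Length-scaled level (TPM, log axis) of the 42 factors in WT (grey) and KO (red), as mean and SD of 3 libraries, ordered by WT level. Rrp1 and Npm1 are above 200 TPM and Wdr12 is lowest at 10.9 TPM, and the WT and KO points of a gene lie close together beside the range between genes.

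Several factors share a feature that bears on how they are counted. Within 7 of them, Nop58, Ncl, Nop56, Tsr1, Gnl3, Wdr43 and Dkc1, lie 21 snoRNA genes on the same strand, so these proteins of the snoRNP and ribosome pathway are themselves snoRNA hosts. Of the 21, 10 share bases with an annotated exon of the host and had 0 counts in every library, since a read in 2 genes on the same strand is counted for neither. These shared bases are 8.002% of the exonic length of Nop56, 3.85% of Gnl3, 2.67% of Ncl and 0.781% of Nop58 (all same-strand neighbours included), and their reads are missing from the host as well. The 11 snoRNA genes in introns had between 0 and 43 counts in a library, after removal of RNA under 200 bp. The most read was Snord53 of Wdr43, with 36, 28 and 36 counts in WT and 29, 43 and 41 in KO.

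On the opposite strand, 16 factors share exonic bases with a neighbour. Tsr1 overlaps Srr by 1240 bases, and 66.7% of the reads on both strands at Tsr1 were on the opposite strand, so the stranded counts matter most there. In the opposite-strand counts, 17 of the 42 factors had enough reads for a test, 0 passed at an adjusted p-value of 0.05 (edgeR, against 0.0278% of 10787 genes) and 2, Gnl3 and Nop56, an unadjusted one (against 5.75%).

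Ribosome biogenesis needs many more proteins, and a list of 110 others, none among the 42, was compared in the same fit. All 110 were tested. None passed at an adjusted p-value of 0.05 in edgeR, and without adjustment 9 were higher in KO (8.18%, against 4.54% of all genes) and 1 lower (0.909%, against 3.38%). DESeq2 gave 0 adjusted among the 13 for which it gave an adjusted value, and without adjustment 6 higher (5.45%, against 3.42% of all genes) and 1 lower. Without WT library 3, edgeR gave 2 higher (1.82%, against 3.66% of all genes), a share below that of all genes. The groups did not overlap for 26 genes that were higher in KO (23.6%, against 7.46%) and for 2 that were lower (1.82%, against 6.97%). With total counts these were 19 higher (17.3%, against 6.36%) and 3 lower (2.73%, against 8.05%), and without WT library 3 they were 34 higher (30.9%, against 12.1%) and 9 lower (8.18%, against 11.6%). In all, 84 of the 110 had a log2 fold change above 0 (76.4%, against 50.1%), and the median was 0.046. The medians of the sublists were 0.061 for 32 small subunit factors, 0.037 for 56 factors of the 60S subunit, 0.032 for 13 exosome genes and 0.068 for 9 snoRNP assembly factors.

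**Figure D5:**
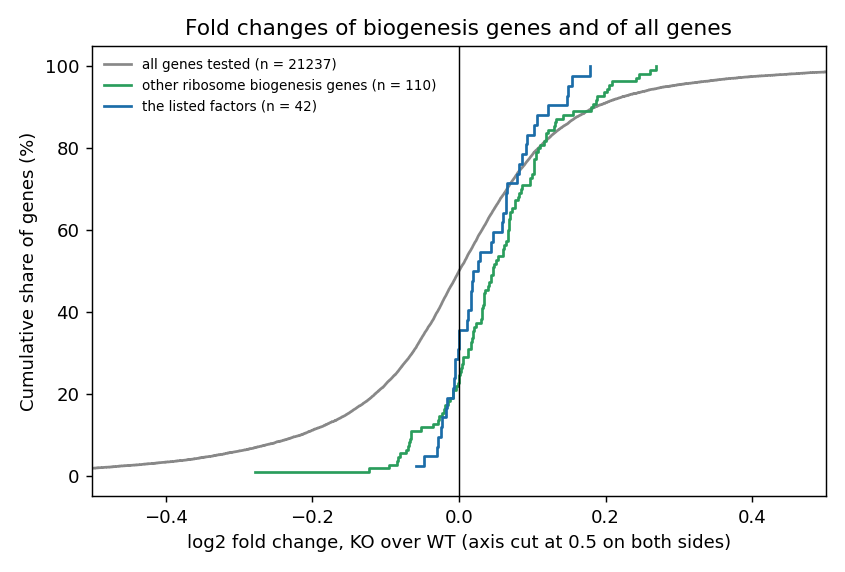
Cumulative share of genes by log2 fold change of KO over WT, for the 42 factors, the 110 other ribosome biogenesis genes and all 21237 genes tested; the axis is cut at 0.5 on both sides. At 0 the curves of both lists lie below that of all genes, since 69.0% and 76.4% of their members are above 0, and their medians are 0.023 and 0.046.

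The 5 genes of that list with the smallest p-values were Ddx18, Naf1, Nop53, Nle1 and Eif6. Ddx18, a helicase of the 60S pathway, had 16.4, 14.9 and 15.1 CPM in WT and 18.7, 19.2 and 17.1 CPM in KO (log2 fold change 0.25, SE 0.075, adjusted p = 0.576 in edgeR). Naf1, which escorts box H/ACA particles during assembly before Gar1 takes its place, was the exception in direction, with 13.0, 14.7 and 13.6 CPM in WT and 12.3, 10.6 and 11.2 CPM in KO (log2 fold change -0.28, SE 0.088, adjusted p = 0.576). Every KO library of Naf1 lay below every WT library, while Gar1 and the other core subunits overlapped between the groups.

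Nop53, which recruits the exosome to 60S precursors, had 36.9, 40.6 and 37.5 CPM in WT and 44.6, 41.3 and 44.4 CPM in KO (log2 fold change 0.18, SE 0.059). Nle1, which helps release late factors from 60S precursors, had 9.07, 8.84 and 7.78 CPM in WT and 9.78, 10.4 and 10.6 CPM in KO (log2 fold change 0.26, SE 0.095). Eif6, which keeps new 60S subunits from joining 40S subunits, had 17.8, 17.4 and 15.6 CPM in WT and 19.3, 18.7 and 20.6 CPM in KO (log2 fold change 0.20, SE 0.075). All KO libraries of these 3 genes lay above all WT libraries, and their adjusted p-values in edgeR were 0.576, 0.580 and 0.581. With GC correction the log2 fold change was 0.16 for Nle1 and 0.12 for Eif6, with unadjusted p-values of 0.0998 and 0.0981 in edgeR.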

How the data were processed

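Read counts per gene were deposited by the authors for 3 KO and 3 WT libraries, as whole numbers with no normalization. Reads were trimmed with cutadapt 1.9.1 and aligned with STAR 2.7.0f, per the submitters' processing notes, and the layout is that of STAR's gene counts. Genome build and annotation are not given in the sources used here; the gene identifiers are exactly those of GENCODE M21 (GRCm38), which supplied names, positions and transcripts. The column for the strand opposite to the first read was used, as it held between 94.6% and 94.8% of stranded counts, and 4 rows that name no gene were left out of library sizes (reads in no gene, in several genes, in several places or unmapped). Reads in several places or in several genes of a strand were not counted.

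Analysis used R 4.3.3 with edgeR 4.0.16 (filterByExpr, TMM factors, quasi-likelihood test, genotype as the factor, Benjamini-Hochberg adjustment over all 21237 genes tested), limma 3.58.1 and DESeq2 1.42.0, with Python 3.11.15 for tables. The fit was tested on simulated data. An SE is the log2 fold change divided by the root of the F statistic, and confidence intervals use the test's degrees of freedom. CPM uses TMM factors; TPM, computed here, divides counts by the longest protein-coding transcript. Alternatives were counts without strand, scaling by DESeq2 size factors or by total counts, no low-count filter or a minimum mean of 50 counts, the Wald test of DESeq2, voom in limma, replicate number as a blocking factor, a correction for GC content (loess on the longest transcript), both together, and leaving out each library. P-values weigh the difference between the genotypes against the spread between these libraries, where the estimate of spread borrows from other genes. No library pair of a group agreed within sampling noise (chi-square per degree of freedom between 4.08 and 8.69).

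The members and lists were chosen with earlier results of these data known. Fully described genes are core subunits of each role, members with an unadjusted p-value under 0.05, the members with the highest and lowest log2 fold change, and the 5 other biogenesis genes with the smallest p-values; other values were added after they were seen, as were the motifs.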

Additional observations from a re-analysis of the deposited data

How the results depend on the processing

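In 16 alternative analyses, 0 of the 42 factors and 0 of the 110 other biogenesis genes had an adjusted p-value under 0.05, and the smallest of a factor was 0.413 (Imp4, no filter on low counts); DESeq2 gave no adjusted value for 34 factors. Unadjusted, the number of factors higher in KO ranged from 1 to 4 when a library was left out (against 3.35% to 4.80% of all genes), with 1 (Nolc1) without WT replicate 3 or without KO replicate 2, and that of other biogenesis genes from 2, without WT replicate 3, to 9 (against the same shares); those lower ranged from 1 to 2 (against 2.04% to 3.78%). Factors without overlap ranged from 7 to 10 higher (against 12.1% to 13.1% of all genes) and 0 to 4 lower (against 10.9% to 13.1%) when a library was left out; 1 was lower with total counts (Tsr1, against 8.05%) and 2 with a mean of 50 counts (Tsr1 and Wdr75, against 7.93%). The median log2 fold change of the factors was 0.044 with GC correction and 0.044 with the replicate block and GC correction, and from 0.024 to 0.037 with a library left out; that of the other genes was from 0.042 to 0.065. With total counts the median of the factors was 0.013 and that of all genes -0.0099.

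Values near 0 changed sign, for 11 of the 42 factors with GC correction and 12 with the block added. Of the fully described genes, Dkc1 was 0.00087 without a filter, 0.048 with GC correction and 0.048 with the block added. Ncl was 0.0023 in the unstranded column, 0.0043 without a filter, 0.055 with GC correction and 0.054 with the block added. Rrp9 was -0.050 with GC correction and -0.049 with the block added, and Pes1 0.00093 with both. With a library left out, the ranges that crossed 0 were -0.059 to 0.0087 (Nop56), -0.046 to 0.064 (Nop58), -0.047 to 0.023 (Dkc1), -0.080 to 0.046 (Gar1), -0.028 to 0.055 (Nop10), -0.053 to 0.031 (Ncl), -0.025 to 0.14 (Rrp9) and -0.085 to 0.051 (Pes1). The cause was not tested.

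The libraries come from different animals, and same-numbered libraries deviated together with correlations of 0.040, -0.031 and -0.058; equal numbers were not taken as pairs. A replicate block gave 3 factors higher (against 4.10% of all genes) and 0 lower (against 2.75%) at an unadjusted p-value under 0.05, and a median of 0.024. With 3 libraries a group, the median SE of a factor was 0.062 on the log2 scale.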

Other observations

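The coefficients of variation over 3 libraries ranged widely. Utp6 had the smallest in KO (0.305%), and Nop14 the smallest in WT (1.02%). The largest were those of Nop2 in KO (13.6%) and Rrp9 in WT (11.02%). From 3 libraries such a coefficient is imprecise. Utp6 had 46.7 ± 0.143 CPM in KO but 46.2 ± 4.09 CPM in WT (SD, n = 3). Whether the factors differ in spread was not tested. The factors lie on 16 chromosomes, with 9 on chromosome 11 and 5 on chromosome 1, where Trmt1l also lies.

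Of 5 astrocyte markers, 3 had an unadjusted p-value under 0.05 in edgeR: Gfap and Aldh1l1 were higher in KO, Gfap with 248 CPM in KO library 3 against at most 140 CPM elsewhere, and Aqp4 was lower. Red blood cell markers were above 0 in 5 of 5, with a median log2 fold change of 0.52, and Hba-a1 had an unadjusted p of 0.0264; their summed level lay between 109 and 149 CPM in WT and between 98.3 and 247 CPM in KO. The microglia marker P2ry12 was lower in KO (log2 fold change -0.34, SE 0.074, unadjusted p = 0.000717 and adjusted p = 0.550 in edgeR). It was the only one of 5 microglia markers with an unadjusted p-value under 0.05 (against 3.38% of all genes lower). In log2 fold change 3 of the 5 were below 0, and 2, Tmem119 and C1qa, were above. The summed level of the microglia markers overlapped, between 149 and 185 CPM in WT and between 144 and 172 CPM in KO. No marker of the 9 lists passed at an adjusted p-value of 0.05.

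In the other lists, 1 of 6 genes of proliferation and neurogenesis had an unadjusted p-value under 0.05 in edgeR (16.7%, against 3.38% of all genes lower). That gene, Mki67, was lower in KO (log2 fold change -0.61, SE 0.16, unadjusted p = 0.00271 in edgeR). Every KO library of Mki67 lay below every WT library. In log2 fold change 4 of the 6 were below 0 and 2 above, and 0 of 6 had an adjusted p-value under 0.05. The summed level of these genes lay between 105 and 123 CPM in WT and between 102 and 118 CPM in KO. Most of that sum came from Dcx and Sox11, with means of 75.3 and 30.5 CPM in WT. Mki67 averaged 3.76 CPM in WT and 2.47 CPM in KO, so the sum says little about it. Oligodendrocyte markers summed to between 3891 and 4291 CPM in WT and between 3296 and 3989 CPM in KO, with 5 of 5 below 0 in log2 fold change and 1 at an unadjusted p-value under 0.05. The part of these cells in the levels of the nucleolar factors was not tested.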
